A study of Mus musculus with 3 samples.

Results

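The heat shock chaperones were examined in single cells from mouse retina as a set of 10 genes, taken by symbol from the 32287 features counted in each library. The set held *Hspa1a*, *Hspa1b*, *Hspa8* and *Hsph1* of the cytosolic HSP70 and HSP110 families, *Hsp90aa1* and *Hsp90ab1* of the HSP90 family, the J-domain genes *Dnajb1* and *Dnaja1*, the small heat shock protein gene *Hspb1*, and *Hspa5*, the HSP70 of the endoplasmic reticulum (ER). All 10 symbols were found once and all 10 had UMIs in Müller glia (MG) of every library.

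The mice were Glast-CreERT2; R26-CAG-LSL-Tdt, a cross in which tamoxifen lets Cre, driven by the glial *Glast* promoter, switch on tdTomato. According to the labels, all mice received 75 mg/kg tamoxifen on 5 days from postnatal day 20, an intravitreal AAV7m8 vector at postnatal day 28, and were killed at postnatal day 51. The methods of the study give a different tamoxifen dose and starting age, and the labels were followed here. The Control group received AAV7m8-GFAP-GFP-LacZsh. The CCA group, for cell cycle activator, received AAV7m8-GFAP-cyclin D1-p27sh mixed 9:1 with the control vector, so the GFP vector was present in every group. The CCANT group received the CCA mixture, the excitotoxin NMDA at postnatal day 35 and the histone deacetylase inhibitor TSA at postnatal day 37. The *GFAP* promoter drives the vector in glia, GFP-positive retina was collected, 2 to 4 retinas were pooled per group, and cells were freed with papain, sorted for tdTomato and sequenced with a 3′ droplet kit as 1 library per group. There were therefore no replicate libraries, and no difference between groups was tested. Beside each value stands its exact 95% interval, which covers counting error only.

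Differences between groups also ran along sex. Of 3714 Control MG, 3471 carried Y-linked UMIs and no more than 1 *Xist* UMI, 3604 of 3628 CCA MG carried *Xist*, and CCANT MG held both kinds (988 and 1506 of 2807). The libraries held 219051219 to 224515457 UMIs over all barcodes, the median MG had 20489 to 24230 UMIs, and 52 to 74 barcodes were shared between pairs of libraries. MG were 10149 of the 10926 cells in the authors' joint table, in 8 clusters led by MG markers such as *Glul*, *Rlbp1* and *Aqp4*. A cluster of 725 cells with MG and rod transcripts was left out. Rod-like, cone-like, bipolar-like, amacrine-like, microglia-like and pericyte-like cells were taken by their markers from all barcodes that passed the quality filters, and are called rods, cones and so on for brevity. Of these cells 1.10% to 20.4% were tdTomato-positive, with the lowest shares in rods.

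Chaperones bind unfolded stretches of other proteins and help them to fold, to stay soluble or to be degraded. In the cytosol J-domain proteins hand clients to HSP70, HSP110 proteins such as HSPH1 recharge HSP70 with ATP, and HSP90 receives part of the clients, while small heat shock proteins hold unfolding proteins without using ATP. *Hspa1a*, *Hspa1b*, *Dnajb1*, *Hsph1*, *Hspb1* and *Hsp90aa1* are classical targets of the heat shock factor HSF1, whereas *Hspa8* and *Hsp90ab1* are expressed steadily in most cells and *Hspa5* follows the unfolded protein response of the ER. Warm enzymatic dissociation is known to raise both immediate-early genes and heat shock genes in single-cell preparations.

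The start regions are shown for the near-identical inducible pair *Hspa1a* and *Hspa1b*, for *Hspb1*, which had the largest ratio between MG libraries among the members, and for *Hspa5*, whose regulation is separate. Each line gives the 250 bases before the RefSeq transcription start (GRCm38.p6), 5′ to 3′ on the strand of the gene. Capitals mark CCAAT boxes, as CCAAT or, on the other strand, ATTGG, and in *Hspa5* also the ER stress response element, which begins with the last CCAAT box.
*Hspa1a* (chr17:34972157-34972406, minus strand): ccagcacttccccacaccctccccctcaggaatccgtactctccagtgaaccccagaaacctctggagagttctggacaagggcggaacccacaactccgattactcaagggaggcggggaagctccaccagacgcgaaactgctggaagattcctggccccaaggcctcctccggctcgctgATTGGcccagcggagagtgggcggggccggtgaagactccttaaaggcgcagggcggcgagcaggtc
*Hspa1b* (chr17:34959239-34959488, minus strand): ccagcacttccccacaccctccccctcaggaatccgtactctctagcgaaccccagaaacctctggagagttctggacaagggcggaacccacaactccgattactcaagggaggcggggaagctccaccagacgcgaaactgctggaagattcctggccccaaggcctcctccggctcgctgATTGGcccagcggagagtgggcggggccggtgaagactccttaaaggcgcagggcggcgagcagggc
*Hspb1* (chr5:135887669-135887918, plus strand): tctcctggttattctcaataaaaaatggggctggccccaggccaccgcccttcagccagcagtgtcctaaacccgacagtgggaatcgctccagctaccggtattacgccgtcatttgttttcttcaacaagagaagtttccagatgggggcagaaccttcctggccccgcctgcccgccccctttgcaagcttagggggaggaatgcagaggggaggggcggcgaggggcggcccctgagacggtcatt
*Hspa5* (chr2:34771840-34772089, plus strand): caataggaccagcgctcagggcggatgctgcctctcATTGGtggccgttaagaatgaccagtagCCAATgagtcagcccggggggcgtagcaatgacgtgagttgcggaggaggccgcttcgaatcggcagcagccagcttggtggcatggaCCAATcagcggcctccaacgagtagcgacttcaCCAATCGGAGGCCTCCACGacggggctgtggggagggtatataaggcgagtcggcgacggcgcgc
The windows of *Hspa1a* and *Hspa1b*, neighbours on chromosome 17, were identical at 247 of 250 positions (98.8%), and both had a CCAAT box 67 to 63 bases before the start. That element, CCAAT and CCACG with 9 bases of any kind between them, searched on both strands, was present as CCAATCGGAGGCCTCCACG at chr2:34772025-34772043, 65 to 47 bases before the start of *Hspa5*. It occurred in 0.119% of the 32851 RefSeq promoter windows of 300 bases and in 1 of the 7 members with a window (none was available for *Hspa8*, *Hsp90aa1* or *Hsp90ab1*). A heat shock element of 3 units, GAANN followed by TTCNN and GAA on either strand, occurred in 0.603% of windows. Among the members it was present in *Hsph1*, as TTCTGGAAAGTTC at chr5:149636288-149636300, after the start. Only this exact pattern was searched, and elements with an imperfect unit were not looked for, so the other members may hold such elements. CCAAT on either strand was in 37.4% of windows and in 6 of the 7 members, and *Hspb1* was the member without it.

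The genes themselves limit how single members can be read. *Hspa1a* (chr17:34969190-34972156, minus strand) and *Hspa1b* (chr17:34956436-34959238, minus strand) shared 50.9% and 52.3% of their 90-base windows with each other or with *Hspa1l*, but none within the last 500 bases of the transcript, where 3′ reads fall. In *Hspa8* (chr9:40800984-40810087, plus strand) 79.8% of the windows in the last 500 bases were also present in 8 pseudogenes, so its count is uncertain. *Hspb1* (chr5:135887919-135889563, plus strand) shared 7.06% of these windows with *Hsp25-ps1*. *Hspa1a* overlaps *Gm20481* on the opposite strand over 2225 bases, and *Dnaja1* (chr4:40722150-40737149, plus strand) overlaps *Smu1* over 608 bases. Since introns were counted, no gene was ranked above another by level, and each gene was followed across libraries and cell classes as its UMIs per 1000000 UMIs of the class (CPM).

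In MG, every member had a higher level in CCA than in Control by its counting interval (with libraries scaled by size factors in place of totals, *Hsp90ab1* turned to a log2 ratio of −0.01), while CCANT lay near Control for most members. *Hspb1*, *Hspa1a* and *Dnajb1* were the members that differed by at least 1.5-fold (*Hspa1b*, at 1.46-fold for CCA over Control, passed it in 4 of 12 alternatives), and *Hspb1* alone was highest in CCANT. These were 3 of 10 members for CCA over Control, 1 for CCANT over Control and 2 for CCANT over CCA. Over all genes with at least 50 UMIs, a minimum that adds genes of low count, 2472 of 17533 differed by as much for CCA over Control. For CCANT over Control 2696 of 17206 did, and for CCANT over CCA 1449 of 17160. The summed level of the 10 members was 2379 CPM in Control, 2742 CPM in CCA and 2275 CPM in CCANT, a log2 ratio of 0.20 for CCA over Control, of −0.06 for CCANT over Control and of −0.27 for CCANT over CCA. Such counting intervals are narrow at this depth. Of all genes with at least 50 UMIs, 39.0% were higher in CCA than in Control by the same rule and 21.2% were lower, against 10 and 0 of the 10 members. Such shares, here and for the other classes, are not matched for UMIs. A gene with many UMIs, as most members are, leaves out 0 at a smaller ratio. In CCANT over CCA, 9 members were lower and 1 was higher, where 28.2% and 16.2% of genes were. In CCANT over Control, 4 members were higher and 3 were lower, beside 33.8% and 24.9% of genes.

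**Figure D1:**
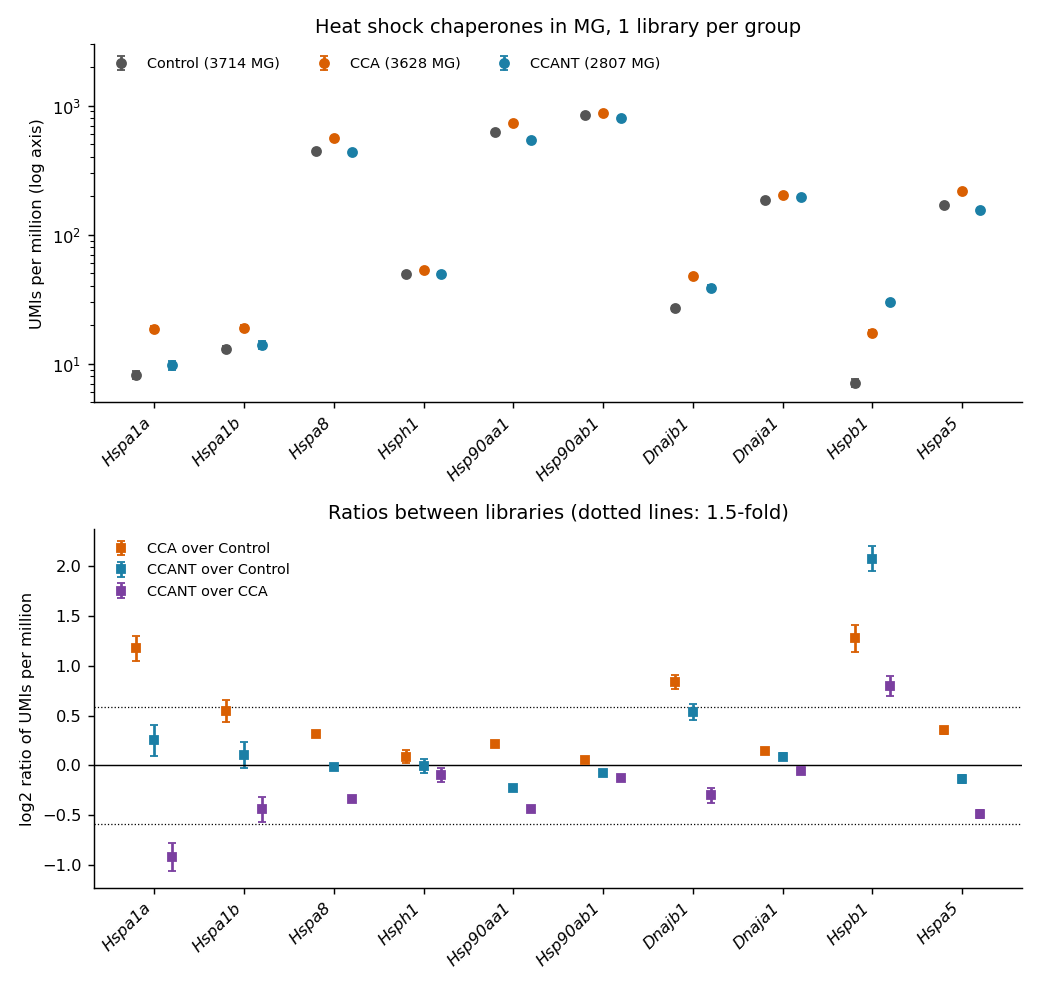
Levels of the 10 members in MG of the 3 libraries, in CPM on a log axis (top), and log2 ratios between libraries (bottom), with exact 95% intervals for counting error and dotted lines at 1.5-fold. *Hspa1a* is highest in CCA, *Hspb1* goes from 7.08 CPM in Control to 29.8 CPM in CCANT, and the members other than *Hspa1a*, *Hspb1* and *Dnajb1* stay between the dotted lines in all 3 comparisons.

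By size, a gene was called when its level differed by at least 1.5-fold among genes with a mean of at least 20 CPM. In CCA over Control, 3.68% of 7573 such genes were called, and 1 of the 7 members that passed this minimum, *Dnajb1*, was called as higher (2.47% of all genes were, and 1.21% were lower). Of all genes, 187 were higher and 92 lower, and 161 and 124 with size factors. *Hspa1a*, *Hspa1b* and *Hspb1* lay below 20 CPM and were not counted. The median log2 ratio of the 7 members was 0.22, against 0.02 for all genes. In CCANT over Control no member of 7 was called, beside 5.22% of genes, and the same 3 genes lay below the minimum, among them *Hspb1* at 4.21-fold. In CCANT over CCA, 1.99% of genes were called, 0.589% as higher and 1.40% as lower, and *Hspb1* was the 1 member called, as higher. At 17.2 CPM in CCA and 29.8 CPM in CCANT it passed the minimum only through the library where it was high, so nothing is read from its call.

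Among the cytosolic HSP70 genes, the stress-inducible *Hspa1a* differed most. Its level was 8.18 CPM (773 UMIs) in Control, 18.4 CPM (1441 UMIs) in CCA and 9.75 CPM (586 UMIs) in CCANT. CCA therefore stood 2.25-fold above Control (log2 ratio 1.17, 95% interval 1.05 to 1.30), and CCANT lay close to Control (0.25). Its near copy *Hspa1b* had 13.0, 19.0 and 14.0 CPM, so CCA was again the highest library, but by less (1.46-fold, log2 ratio 0.54, interval 0.43 to 0.65). *Hspa8*, which encodes the constitutive HSC70, had 446, 556 and 440.2 CPM. CCA exceeded Control by a log2 ratio of 0.32 (0.30 to 0.34), and Control and CCANT differed by −0.02. *Hsph1*, the HSP110 exchange factor, was nearly level at 49.6, 52.8 and 49.5 CPM.

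*Hspa1a* UMIs were spread over few cells. With each cell thinned to 8000 UMIs, 4.83% of Control MG (4.16% to 5.57%), 8.39% of CCA MG (7.50% to 9.35%) and 5.89% of CCANT MG (5.04% to 6.83%) had a UMI, and 10.8%, 15.6% and 11.6% had one before thinning. In the thinned cells the top 1% held 33.5% to 39.1% of the UMIs, and no cell had more than 11; 27, 76 and 40 shallower MG were left out. Bipolar cells gave the lowest share of any class, 0.483% to 0.935% at 3000 UMIs, where MG had 2.77%, 4.02% and 2.99%. Bipolar cells were named as the lowest class, so nothing is read from MG lying above them. By mean level over the libraries, *Hspa1a* in MG lay below pericytes, microglia, rods and cones. Among the MG shares the CCA library was the highest.

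For HSP90, the 2 genes moved unequally. *Hsp90aa1*, the inducible alpha form, had 629 CPM in Control, 730.1 CPM in CCA and 538 CPM in CCANT. Its log2 ratios were 0.22 (0.20 to 0.23) for CCA over Control and −0.23 for CCANT over Control, so Control lay between the other libraries. *Hsp90ab1*, the beta form, had 845, 880.0 and 804 CPM and a log2 ratio of 0.06 for CCA over Control. Without the cycling clusters described further on, the *Hsp90aa1* ratio of CCA over Control was 0.07.

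*Dnajb1*, the J-domain partner that hands clients to inducible HSP70, had 26.8 CPM in Control, 47.9 CPM in CCA and 38.9 CPM in CCANT. It was 1.78-fold higher in CCA than in Control (log2 ratio 0.84, interval 0.76 to 0.91), and the CCANT library was higher than Control by 0.54. At 8000 UMIs per cell, 16.6%, 24.2% and 20.5% of MG had a *Dnajb1* UMI, in the same order of libraries as the levels. *Dnaja1*, a J-domain protein of the constitutive machinery, had 184, 203 and 196 CPM and log2 ratios of 0.14 and 0.09 over Control.

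*Hspb1*, the small heat shock protein, had its own order of libraries. Its level was 7.08 CPM (669 UMIs) in Control, 17.2 CPM (1340 UMIs) in CCA and 29.8 CPM (1792 UMIs) in CCANT. These are ratios of 2.42-fold for CCA over Control (log2 ratio 1.28, 1.14 to 1.41), 4.21-fold for CCANT over Control (2.07) and 0.80 on the log2 scale for CCANT over CCA. The share of MG with an *Hspb1* UMI at 8000 UMIs was 3.82%, 9.04% and 15.5%. It was the member in which CCANT exceeded CCA.

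*Hspa5* encodes BiP, the HSP70 of the ER lumen. Its level was 169.7 CPM in Control, 216 CPM in CCA and 155 CPM in CCANT. The log2 ratio was 0.35 (0.32 to 0.38) for CCA over Control, −0.13 for CCANT over Control and −0.48 for CCANT over CCA. The CCA library was thus the highest and CCANT the lowest, as for *Hsp90aa1*.

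Transcripts of other cells were present in the MG and partly moved with the groups. All 9 rod markers had UMIs in MG, and their sum was 248 CPM in Control, 409 CPM in CCA and 519 CPM in CCANT, or 0.98%, 1.53% and 1.74% of the level in rods. At those shares rod transcripts would carry 0.43, 0.66 and 0.92 CPM of *Hspa1a*, and 16.2, 25.8 and 32.5 CPM of *Hsp90aa1*, which was highest in rods and cones. All 10 bipolar markers were at 2.69%, 2.96% and 3.32% of the level in bipolar cells, and these shares would carry 22.0, 26.4 and 27.6 CPM of *Hsp90aa1*. All 9 amacrine markers were at 21.1%, 15.8% and 17.3%, which would carry 171, 150.2 and 147 CPM, but *Pax6*, a gene that MG also express, made up all but 28.8, 26.7 and 23.1 CPM of their sum. Without *Pax6* the amacrine shares were 1.43%, 1.07% and 0.88%, or 11.6, 10.2 and 7.52 CPM of *Hsp90aa1*. The part of rod, bipolar and amacrine transcripts in the MG levels was not tested. For *Hspb1* the classes with the highest levels were pericytes and endothelial-like cells. All 8 pericyte markers summed to 88.0, 87.5 and 94.7 CPM in MG, which is 0.50%, 0.56% and 0.60% of pericytes and would carry 2.17, 2.57 and 2.50 CPM of *Hspb1*. All 7 endothelial markers summed to 2222, 1856 and 2170.35 CPM in MG, and *Flt1* and *Kdr*, which read high in MG of every library, made up all but 4.21, 6.32 and 5.31 CPM of this. The full list is at 20.9%, 15.5% and 20.02% of endothelial-like cells, a share at which 76.0, 85.7 and 61.1 CPM of *Hspb1* would be carried, above the whole MG level. The 5 other markers are at 0.0895%, 0.105% and 0.103%, a share that would carry at most 0.583 CPM. The 5 astrocyte markers, part of which MG also express, summed to 559, 531 and 536 CPM, and astrocyte-like cells had 26.8 to 42.8 CPM of *Hspb1*. The part of these cells in the *Hspb1* level of MG was not tested.

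MG fell into clusters of very different make-up by library. Cluster 1 held 49.4% of Control, 27.5% of CCA and 20.02% of CCANT MG, clusters 4 and 5 held a further 30.2% and 15.4% of Control MG, and clusters 2 and 3 held 27.0% and 18.7% of CCA and 34.0% and 32.5% of CCANT MG. Within cluster 1, which all libraries shared, CCA exceeded Control by log2 ratios of 1.17 for *Hspa1a*, 0.95 for *Hspa1b*, 0.77 for *Dnajb1* and 1.23 for *Hspb1*. These are close to the values over all MG or above them. *Hspa5* and *Hsp90aa1* were at 0.17 and 0.13. For CCANT over Control in the same cluster, *Hspb1* stayed high (1.94), *Dnajb1* was at 0.01, and *Hspa1a* was lower (−0.86, from 47 CCANT UMIs). CCANT over CCA gave −2.04 for *Hspa1a*, −1.01 for *Hspa1b* and −0.75 for *Dnajb1*, so these inducible genes were further apart in cluster 1 than in all MG.

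The relation to dissociation was read from 28 immediate-early and dissociation genes, such as *Fos*, *Jun*, *Egr1* and *Atf3*, none of which is a member. Their sum was 5448 CPM in Control, 9788 CPM in CCA and 9576 CPM in CCANT MG, and moved with the groups, with log2 ratios of 0.85 and 0.81 over Control and −0.03 between CCANT and CCA. For CCANT over CCA the members ran from −0.92 (*Hspa1a*) to 0.80 (*Hspb1*). *Hspa5* was at −0.48, *Hsp90aa1* and *Hspa1b* at −0.44, *Hspa8* at −0.34 and *Dnajb1* at −0.30. *Hsp90ab1* (−0.13), *Hsph1* (−0.09) and *Dnaja1* (−0.05) were nearer to 0. What set these ratios was not tested. Whether handling or treatment set the immediate-early sum cannot be told apart with 1 library per group.

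Cells of each library were then put into 4 quartiles by their own immediate-early sum, each cell thinned to 8000 UMIs. *Hspb1* differed most between the end quartiles, with 5.79-fold, 5.43-fold and 3.41-fold more in the top than in the lowest quartile of Control, CCA and CCANT. In Control MG it was 3.23, 2.58 and 3.47 CPM in the first 3 quartiles and 18.7 CPM in the top one. At 8000 UMIs, 3.82% of Control MG had an *Hspb1* UMI, and the top 1% of cells held 50.2% of its UMIs. The Control quartile values for *Hspb1* thus rest on few cells. *Hspa1a* had folds of 2.12, 2.60 and 3.35 and *Dnajb1* of 1.69, 1.86 and 2.84. *Hspa1b* had 3.30, 1.87 and 1.35, the opposite order of libraries. For the remaining genes the folds were smaller, from 1.33 to 1.40 for *Hspa8*, 1.07 to 1.43 for *Hsph1*, 1.10 to 1.30 for *Hsp90ab1*, 0.89 to 1.29 for *Hsp90aa1*, 1.03 to 1.13 for *Hspa5* and 0.95 to 1.08 for *Dnaja1*. For the 10 members summed the folds were 1.30, 1.10 and 1.24, beside 3.15, 5.19 and 4.53 for the immediate-early sum that defined the quartiles.

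**Figure D2:**
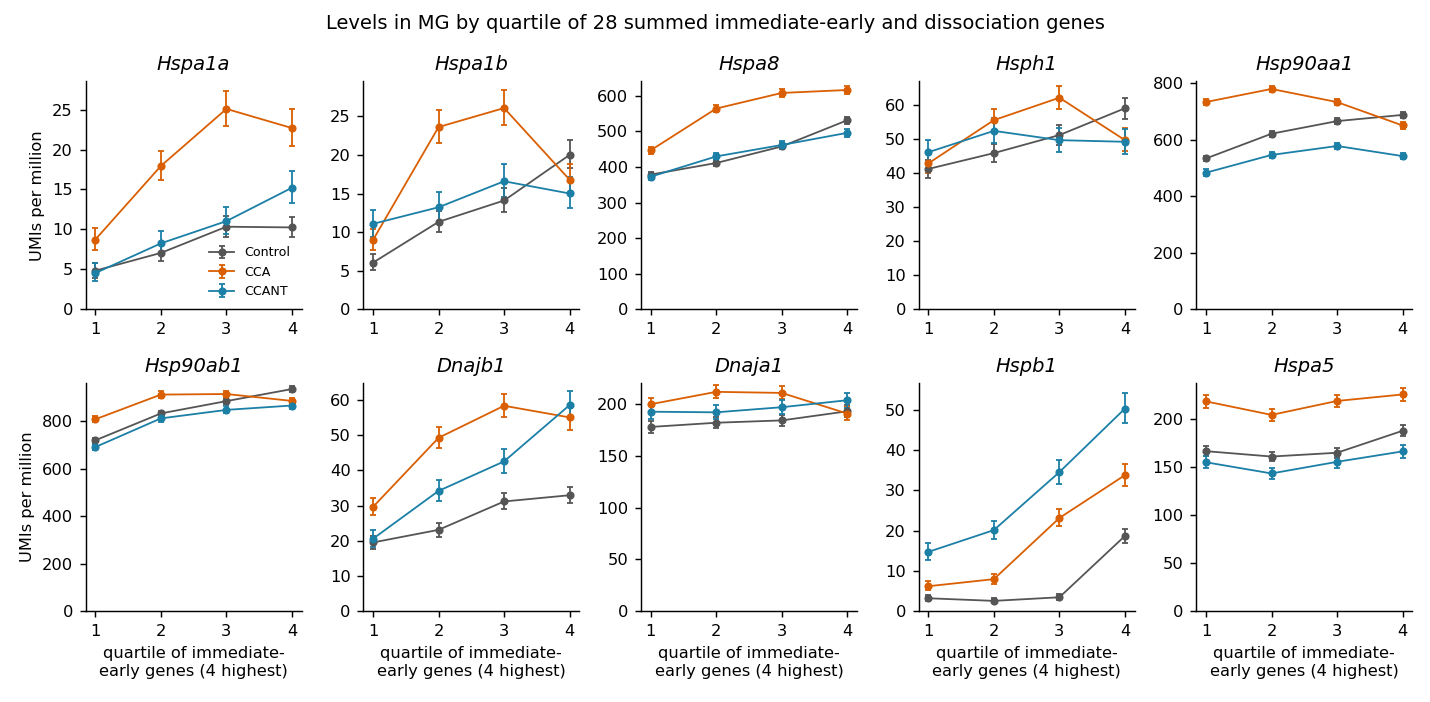
Levels of each member in MG, in CPM, by quartile of the summed 28 immediate-early and dissociation genes (1 lowest, 4 highest), cut within each library, with exact 95% intervals for counting error. *Hspb1* reaches 50.3 CPM in the top CCANT quartile from 14.7 CPM in the lowest, *Hspa1a* is highest in CCA in every quartile, and *Hspa5* and *Dnaja1* are nearly flat.

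Levels also differed between libraries among cells low in immediate-early genes. In the lowest quartile, where the immediate-early sum of CCA exceeded Control by a log2 ratio of 0.34, the ratios of CCA over Control were 0.85 (0.49 to 1.21) for *Hspa1a*, 0.60 for *Dnajb1*, 0.94 for *Hspb1*, 0.46 for *Hsp90aa1* and 0.39 for *Hspa5*. Cycling MG, described further on and nearly absent from Control, had a lower immediate-early sum and more *Hsp90aa1* and *Hspa5* than other CCA MG. Their share of each quartile was not counted, and their part in these ratios was not tested. For CCANT over Control in that quartile, *Hspb1* was at 2.19 (1.80 to 2.59), *Hspa1b* was at 0.87 (0.53 to 1.21), and *Dnajb1* (0.08, −0.14 to 0.29) and *Hspa1a* (−0.09) were near 0. *Hspa1b* thus turned with the quartile, since in the top quartile CCANT over Control was −0.41 (−0.65 to −0.18), and over all MG it was 0.10. In the top quartile, the immediate-early sum of CCA exceeded Control by a log2 ratio of 1.06. There, CCA over Control was 1.15 for *Hspa1a*, 0.74 for *Dnajb1* and 0.85 for *Hspb1*, but −0.25 for *Hspa1b*, −0.08 for *Hsp90aa1* and −0.25 for *Hsph1*. The ratio of the 10 members summed was 0.29 in the lowest and 0.04 in the top quartile.

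Cycling MG had a chaperone profile of their own. Cluster 8 scored highest for S-phase markers and cluster 9 for G2/M markers, with *Cenpf* and *Top2a* among its leading genes, and they are called S and G2/M clusters here. They held 172 and 170 CCA cells, 64 and 43 CCANT cells and 0 and 2 Control cells, so values are given within CCA and within CCANT against all other MG of that library. Chaperone and stress genes had been left out of the clustering.

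*Hsp90aa1* stood out in G2/M. It was at 1717 CPM in the CCA cluster against 661 CPM in other CCA MG (2.60-fold, 2.53 to 2.67) and at 1375 CPM against 512 CPM in CCANT (2.68-fold, 2.55 to 2.82). In the S cluster it was at 944 CPM in CCA and 826 CPM in CCANT (1.43-fold and 1.61-fold). *Hspa5* was higher in G2/M only among these clusters, at 369 CPM against 209 CPM in CCA (1.76-fold, 1.67 to 1.86) and 289.8 CPM against 152 CPM in CCANT (1.91-fold, 1.71 to 2.12), while its S-cluster folds were 0.93 and 1.04. The constitutive *Hspa8* showed the reverse order. It was higher in the S cluster, at 769 CPM against 548 CPM in CCA (1.40-fold) and 729 CPM against 432 CPM in CCANT (1.68-fold), and near level in G2/M (0.87-fold and 1.02-fold). *Hsp90ab1* lay between 1.12-fold and 1.17-fold in S and between 0.86-fold and 0.91-fold in G2/M.

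The inducible HSP70 genes had few UMIs in cycling cells. *Hspa1a* was at 9.78 CPM (42 UMIs) in the S cluster and 10.8 CPM (43 UMIs) in the G2/M cluster of CCA, against 19.4 CPM in other CCA MG, and had 10 and 5 UMIs in those of CCANT. *Hspa1b* was at 15.8 CPM (68 UMIs) in S and 4.01 CPM (16 UMIs) in G2/M of CCA, against 20.01 CPM in other CCA MG. In CCANT it was at 17.5 CPM (27 UMIs) in S, above the 14.1 CPM of other MG but with an interval of 11.5 to 25.4 CPM, and at 4.91 CPM (6 UMIs) in G2/M. *Hspb1* was at 5.82 and 9.52 CPM in the S and G2/M clusters of CCA, against 18.3 CPM in other CCA MG. *Dnajb1* differed from both, with 1.37-fold and 2.16-fold in G2/M of CCA and CCANT. The immediate-early sum was lower in the cycling clusters (0.54-fold to 0.82-fold).

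**Figure D3:**
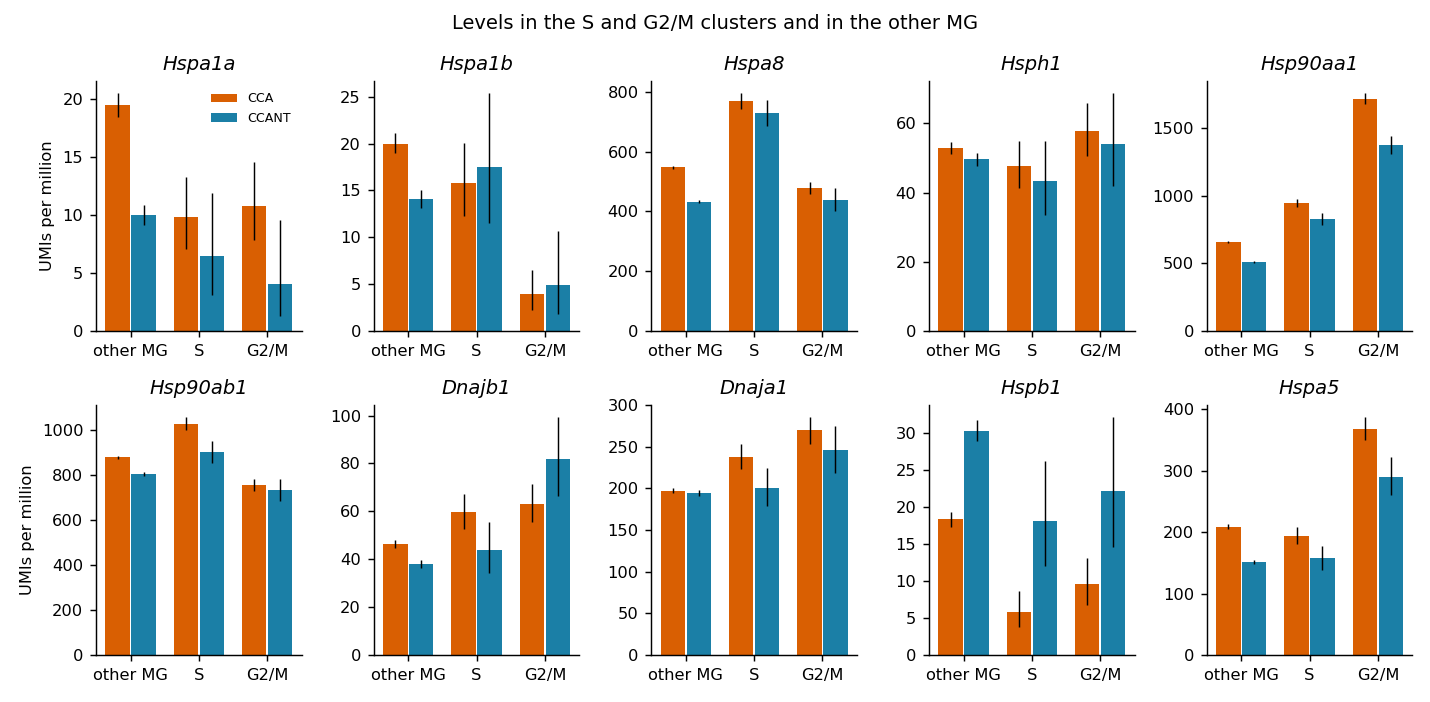
Levels of each member, in CPM, in the S and G2/M clusters and in all other MG of the CCA and CCANT libraries, with exact 95% intervals for counting error. *Hsp90aa1* and *Hspa5* are highest in G2/M (1717 and 369 CPM in CCA), *Hspa8* is highest in S (769 CPM in CCA), and *Hspa1a* is lowest in the cycling clusters.

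Sex was examined in the CCANT library, which held MG with *Xist* and MG with Y-linked UMIs. Such cells come from different mice of the pool, so sex and animal cannot be told apart in this split. Between them, cells with *Xist* over cells with Y-linked UMIs, the log2 ratio was −0.05 (−0.31 to 0.21) for *Hspa1a*, −0.07 for *Dnajb1*, −0.09 for *Hspa5* and 0.02 for the 10 members summed. The larger values were 0.31 (0.09 to 0.54) for *Hspa1b*, 0.24 for *Hsph1* and 0.22 (0.07 to 0.37) for *Hspb1*. Between cells of like sex, CCANT over Control with Y-linked UMIs gave 1.94 (1.77 to 2.10) for *Hspb1*, from 7.16 to 27.4 CPM, 0.55 for *Dnajb1* and 0.31 for *Hspa1a*. CCANT over CCA with *Xist* gave −0.92 for *Hspa1a*, −0.52 for *Hspa5* and 0.89 for *Hspb1*. These are near the values over all MG. CCA and Control shared no sex, so sex and treatment cannot be told apart in that comparison.

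Within the Control library, MG could be split by the UMIs of the GFP vector, with each cell thinned to 8000 UMIs for the split. Without a GFP UMI, 2759 MG had 5.71 CPM of *Hspb1* (5.16 to 6.30). The level was 8.69 CPM (7.31 to 10.2) where 1 GFP UMI was present, in 630 MG, and 16.0 CPM (13.4 to 19.0) in the 298 MG that had 2 or more. The immediate-early sum was 5173, 6035 and 6727 CPM in the same cells. *Hspa5* (166, 173 and 193 CPM) and *Hspa8* (438, 463 and 488 CPM) were slightly higher with more GFP. *Hspa1a* (8.39, 7.64 and 7.64 CPM) and *Dnajb1* (27.2, 26.2 and 25.2 CPM) were not.

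The cell classes outside MG went through the same dissociation and sort but are not the labelled target of the *GFAP* vectors. Their order differed from gene to gene. *Hspa1a* was highest in pericytes (166, 254 and 179 CPM in Control, CCA and CCANT), then in microglia (73.0, 98.3 and 59.5 CPM) and rods (43.6, 43.2 and 52.5 CPM), so rods had 5.33-fold, 2.34-fold and 5.39-fold the MG level. Cones had 15.9, 18.8 and 24.7 CPM, amacrine cells 5.03 to 7.39 CPM and bipolar cells 1.79 to 3.46 CPM. Cones and MG overlapped in range, and the other neighbours in this order did not. Carry-over of free RNA was visible in each class, since MG genes were present at 4.90% to 6.55% of their MG level in rods, 3.04% to 4.31% in cones, 5.86% to 8.48% in bipolar cells, 8.47% to 12.4% in amacrine cells, 12.9% to 22.1% in microglia and 18.7% to 25.6% in pericytes. Its part in the class levels was not tested beyond the subtraction given among the alternatives.

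**Figure D4:**
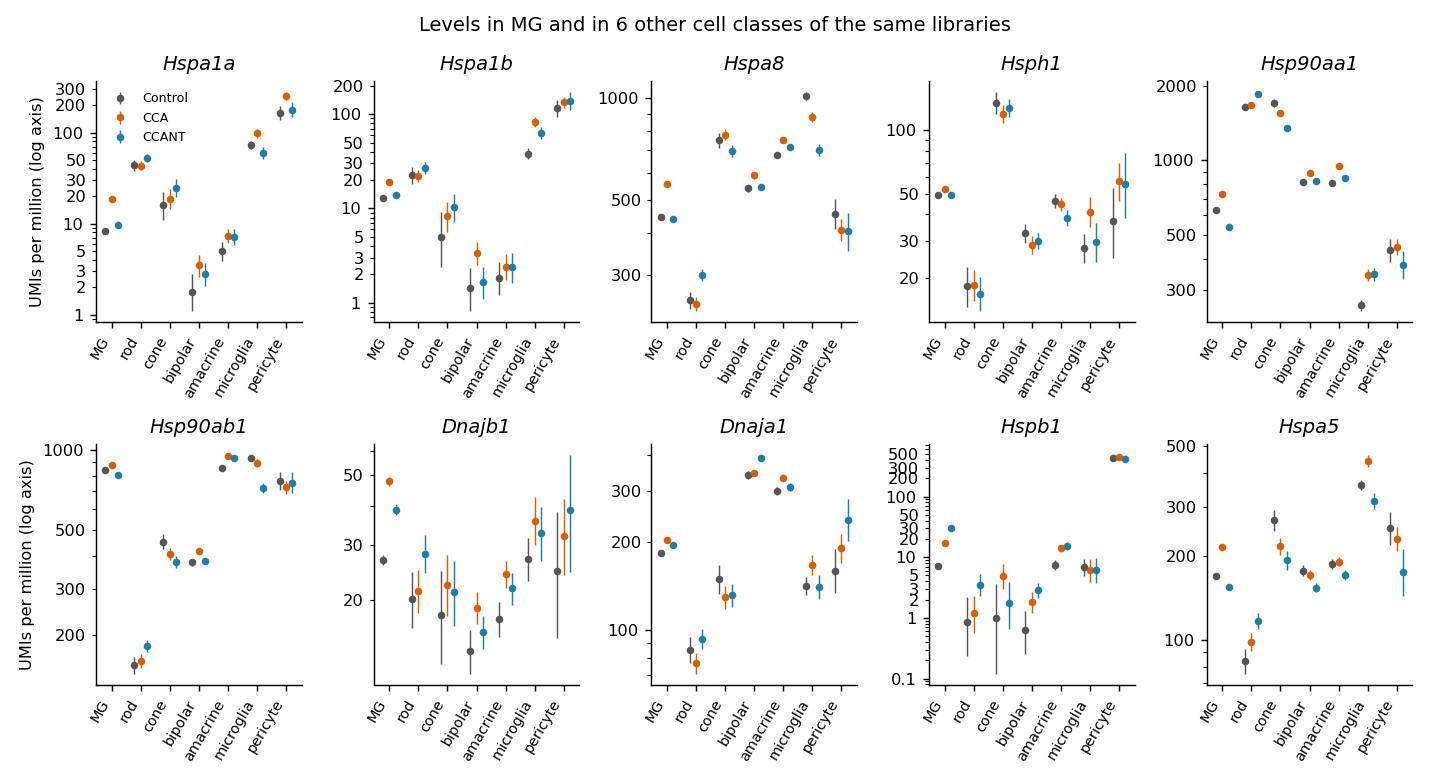
Level of each member, in CPM on a log axis, in MG and the 6 other classes of the Control, CCA and CCANT libraries, with exact 95% intervals for counting error. *Hspb1* and *Hspa1a* are highest in pericytes, *Hsp90aa1* in rods and cones, *Hsph1* in cones and *Dnaja1* in bipolar cells.

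*Hspb1* was at 434, 456 and 415 CPM in pericytes, a mural cell of vessels, and so differed little there between libraries. In rods it had 4, 9 and 25 UMIs. Amacrine cells had 7.43, 14.2 and 15.3 CPM (105, 235 and 200 UMIs), log2 ratios of 0.94 and 1.04 over Control, in the direction seen in MG. MG transcripts were at 8.47% to 12.4% of their MG level in the same cells, and their part in this difference was not tested.

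*Hsp90aa1* was highest in rods and cones, whose ranges overlapped. Rods had 1653, 1685 and 1861 CPM, 2.31-fold to 3.46-fold the MG level, and cones had 1708, 1557 and 1350.1 CPM. The ratio of *Hsp90aa1* to *Hsp90ab1* UMIs, which depends on how each gene is captured and is compared here only between classes and libraries, set the classes apart more than the libraries. It was 10.2 to 10.7 in rods, 3.57 to 3.85 in cones, 2.15 to 2.17 in bipolar cells, 0.91 to 1.01 in amacrine cells, 0.67 to 0.83 in MG, 0.50 to 0.62 in pericytes and 0.28 to 0.48 in microglia. *Hsph1* was highest in cones (134, 119 and 127 CPM), 2.25-fold to 2.70-fold the MG level. *Dnaja1* was highest in bipolar cells (341, 347 and 392 CPM), and *Hspa8* in Control and CCA was highest in microglia (1015 and 880.0 CPM). *Dnajb1* ranges overlapped along the whole order of classes, from 26.8 to 47.9 CPM in MG to 13.7 to 18.9 CPM in bipolar cells.

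Rods did not share the difference between Control and CCA seen in MG. The summed level of the members was 2334, 2372 and 2680.4 CPM in Control, CCA and CCANT rods, a log2 ratio of 0.02 for CCA over Control. By the counting interval 1 of 9 members with at least 50 UMIs, *Hspa5*, was higher in CCA (0.23, 0.05 to 0.42), beside 11.9% of genes. *Hspa1a* was at −0.01 (−0.27 to 0.25) and *Dnajb1* at 0.09 (−0.29 to 0.47). Rods had fewer UMIs, so their intervals were wider.

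Between CCANT and CCA, rods and MG went in opposite directions. In rods 7 of 9 members were higher in CCANT by the counting interval, beside 13.1% of genes, and none was lower, beside 17.5% of genes. The log2 ratios were 0.28 for *Hspa1a*, 0.25 for *Hspa5*, 0.28 for *Hspa8*, 0.14 for *Hsp90aa1*, 0.19 for *Hsp90ab1*, 0.40 for *Dnajb1* and 0.28 for *Dnaja1*. For the sum the ratio was 0.18 (0.15 to 0.21) in rods and −0.27 in MG. Over Control, 6 of 9 members were higher in CCANT rods (17.1% of genes were), led by *Hspa5* and *Dnajb1* (both 0.48). The median share of mitochondrial UMIs in rods also differed between the libraries, at 1.37%, 1.96% and 2.42% in Control, CCA and CCANT, while in MG it was 3.76%, 3.41% and 3.89%. Among the 405, 718 and 639 rods with 1% to 3% mitochondrial UMIs, where the medians were 1.77%, 1.94% and 2.08%, the sum was at 0.14 for CCANT over CCA and 0.12 for CCANT over Control (0.20 in all rods). In these rods CCANT over Control was 0.27 for *Hspa5* and 0.20 for *Dnajb1*. None of the 8 members tested reached 1.5-fold in any rod comparison, where 1.66%, 8.31% and 2.01% of genes did for CCA over Control, CCANT over Control and CCANT over CCA.

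Microglia, the resident macrophages, showed the order of MG for part of the set. *Hspa1b* was at 38.0, 82.7 and 63.1 CPM, a log2 ratio of 1.12 (0.86 to 1.38) for CCA over Control, and *Hspa5* at 362, 443 and 317 CPM. *Hsp90aa1* (0.41, 0.30 to 0.52) and *Hspa1a* (0.43, 0.22 to 0.64) were higher in CCA than in Control as well. Between CCANT and CCA, 7 of 9 members were lower in CCANT by the counting interval (12.9% of genes were). *Hspa8* fitted neither order, with 1015, 880.0 and 701 CPM. At 1.5-fold, 1 of 9 members was called in each comparison: *Hspa1b* as higher in CCA and in CCANT over Control, and *Hspa1a* as lower in CCANT over CCA, where 8.30%, 17.3% and 12.9% of genes were called. The CCANT microglia cluster also held 2863 CPM of *Igkc*, an immunoglobulin gene, against 82 and 15 CPM in Control and CCA, and the part of those cells in these values was not tested.

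In amacrine and bipolar cells the summed level was higher in CCA than in Control, with 0.14 and 0.13 for *Hsp90ab1*. In amacrine cells 7 of 10 members were higher in CCA than in Control by the counting interval (22.5% of genes were), with 0.48 for *Dnajb1*, 0.24 for *Hsp90aa1* and 0.17 for the sum, which was 0.37 as a mean over cells. In bipolar cells 6 of 9 were (17.4% of genes), with 0.46 for *Dnajb1* and 0.10 for the sum. CCANT was lower than CCA for 5 members in amacrine cells and for 6 of 10 in bipolar cells (11.6% and 10.2% of genes). It was higher for 0 and for 1 of 10 (13.2% and 12.6% of genes). For CCANT over Control the sum was 0.07 in amacrine and 0.03 in bipolar cells, where MG had −0.06. In amacrine cells 6 members were higher and 2 lower (23.9% and 19.7% of genes), and in bipolar cells 2 of 9 were higher and 1 lower (21.0% and 12.1% of genes). The bipolar counts also include *Hspb1* for CCANT over Control (7 UMIs in Control and 49 in CCANT). For CCANT over CCA they include *Hspa1b* (52 UMIs in CCA and 28 in CCANT). Nothing is read from the bipolar counts.

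Cones differed again. By the counting interval 3 of 8 members were lower in CCA than in Control (6.97% of genes) and 0 were higher (6.13% of genes). The summed level was 3501 CPM in Control and 3261 CPM in CCA cones. In CCANT over Control 4 of 8 members were lower (8.58% of genes), including *Hspa5* (269, 217 and 193 CPM, −0.48) and *Hsp90aa1* (−0.34). In the other direction 1 of the 8, *Hspa1a*, was higher (15.9 CPM from 32 UMIs in Control and 24.7 CPM from 84 UMIs in CCANT), beside 8.07% of genes. *Hspa1a* passed the UMI minimum only through CCANT, so nothing is read from its being counted as higher. In pericytes, with 40 to 98 cells, 2 of 10 members were higher in CCA than in Control by the counting interval (10.0% of genes were) and none was lower (8.27% of genes). They were *Hspa1a*, with a log2 ratio of 0.61 (0.33 to 0.90), and *Hsph1*, at 37.2 CPM (30 UMIs) and 57.4 CPM (95 UMIs). The intervals of the other 8 included 0. *Hsph1* passed the UMI minimum only through CCA, so nothing is read from the number of members counted as higher in pericytes.

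The wider chaperone network of MG was followed with lists of related genes, for CCA over Control unless stated. Of 6 cytosolic HSP70 and HSP110 genes tested, members included, none was called at 1.5-fold, and the ratios ran from 0.35 (*Hspa14*) and 0.32 (*Hspa8*) to 0.09 (*Hsph1*) and 0.04 (*Hspa4l*). Of 25 J-domain genes 2 were called as higher (2.47% of all genes were), *Dnajb1* (0.84) and *Dnajc9* (0.80), and *Dnajc13* (−0.17) and *Dnajb14* (−0.10) were lowest. Among 19 cochaperones none was called, with *Unc45a* (0.32) and *Ppid* (0.23) at the top and *Ahsa2* (−0.08) and *Chordc1* (−0.06) at the bottom. Of the list of small heat shock genes, drawn up by symbol, the 2 above the minimum were *Cryab* (0.12) and *Hspb11* (−0.05). Of the heat shock factor list *Hsbp1* (0.25) was the gene tested.

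The chaperonin TRiC and prefoldin, which fold actin and tubulin, had 13 genes tested. By CPM all 13 lay above 0, as did 54.4% of the 7573 genes tested, while with size factors 39.3% of the 7573 genes did. The ratios ran from 0.09 (*Pfdn2*) and 0.10 (*Pfdn5*) to 0.37 (*Tcp1*) and 0.36 (*Cct5*), with a median of 0.26, and none was called. Mitochondrial chaperones ranged from −0.08 (*Clpx*) and 0.14 (*Clpp*) to 0.29 (*Hspd1* and *Trap1*), with 0 of 8 called. Of 21 ER chaperones and unfolded protein response genes, 1 was called as higher (2.47% of all genes were). It was *Ppp1r15a* (1.37), a phosphatase subunit that is also an early stress gene. At 17.7 CPM in Control and 45.8 CPM in CCA it passed the minimum only through CCA, so nothing is read from its call. *Atf4* followed with 0.46, and *Eif2ak3* (−0.11) and *Sel1l* (−0.10) were lowest. Of 22 immediate-early genes tested, 17 were called as higher, where 2.47% of all genes were. The ratios were highest for *Nr4a1* (2.45) and *Atf3* (2.06) and lowest for *Dusp6* (0.17) and *Jund* (0.23). *Nr4a1*, at 9.82 CPM in Control and 53.5 CPM in CCA, passed the minimum only through CCA. How many others did so was not counted, so nothing is read from the number called. The 4 MG genes *Rlbp1*, *Aqp4*, *Glul* and *Kcnj10* were at −0.16 to −0.31, with none called.

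In CCANT over Control the immediate-early list again had 17 genes called as higher, of 23 tested (2.39% of all genes were). *Ppp1r15a* (1.11) was the ER gene called, and the chaperone lists had none. In Control *Egr3* (5.56 CPM), *Nr4a1* (9.82 CPM) and *Ppp1r15a* (17.7 CPM) lay below 20 CPM, so they passed the minimum only through CCANT. Nothing is read from these calls or from the number called. In CCANT over CCA the cochaperones had, by CPM, a median of −0.11, with 0 of 18 above 0. TRiC and prefoldin had a median of −0.18, with 2 of 13 above 0. Of the 7635 genes tested 41.5% lay above 0 by CPM, and 53.4% with size factors. Outside the immediate-early list, with 1 gene higher and 1 lower, *Hspb1* was the gene called. It passed the minimum only through CCANT, and nothing is read from its call. The all-gene median was −0.02 there.

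The genes most like the inducible set in pattern were found from log2(CPM + 1) over 25 points, each a cell class in 1 library, drawn from 10 classes. For the sum of *Hspa1a*, *Hspa1b*, *Dnajb1* and *Hsph1*, Pearson's r was highest for *Gpcpd1* (0.88), *Rassf3* (0.85), *Bicd2* (0.84), *Tmem109* (0.84) and *Clic4* (0.80), among 8716 genes. For *Hspa5* it was highest for *Calr* (0.92), *Pdia6* (0.90), *Pdia3* (0.89), *Tmed3* (0.87) and *Zfp710* (0.85). *Calr*, *Pdia6* and *Pdia3* encode ER chaperones and disulfide isomerases. The points share libraries and classes, so these values are descriptions.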

How the data were processed

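Barcode, feature and UMI count matrices were deposited by the authors, made per library with Cell Ranger 6.1.1 on mm10 plus tdTomato and GFP, intronic reads included. With them came a joint table of UMI counts for 10926 cells left after their tdTomato and doublet filters. The authors had also removed clusters they took as contaminated, among them MG with rod transcripts. The matrices and the joint table hold whole counts. In the joint table a median of 93.1% of a Control cell's UMIs remained, against 99.85% and 99.87% in CCA and CCANT, so the library matrices were used for all levels.

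Barcodes were kept from 2000 features upward, up to 100000 UMIs and with no more than 15% mitochondrial UMIs, and were clustered (scanpy 1.11.5, leidenalg 0.10.2, igraph 0.11.9; 2000 variable genes, 20 neighbours; 7 components and resolution 0.3 for the cells of the joint table, 20 and 0.5 for all passing cells), without chaperone, stress, sex-linked and reporter genes. Clusters were named from fixed marker lists, but the naming rule and resolution were chosen after the clusters had been seen. The joint table, and so the MG, had passed the authors' doublet filter, and no doublets were removed from the other classes. UMIs were summed per class and library with numpy 2.4.6 and pandas 2.3.3 and given per 1000000 UMIs. Intervals were exact Poisson for levels, exact conditional for ratios and exact binomial (Clopper-Pearson) for shares, from scipy 1.17.1, and ratios are not given for classes outside MG with fewer than 50 UMIs in a library. No test was made, with 1 library per group. Genes were counted by a ratio of at least 1.5-fold or by an interval that leaves out 0. In each rule the minimum of 50 UMIs was for both libraries together. The first rule was run on simulated counts that held counting error only, with no variation between libraries, mice or cells. There it called 100% of genes changed 2-fold and 0% of those changed 1.2-fold or unchanged. How often it calls a gene through differences between libraries or mice cannot be read from this. The intervals covered the simulated ratio in 92.7% to 97.0% of changed genes, and the share of unchanged genes they call was not simulated.

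The 10 members are all named. From each further list the 2 highest and 2 lowest ratios of CCA over Control in MG are named, and the 5 genes of most similar pattern. Members and lists were chosen with earlier results of these data known. Positions and copies came from GENCODE vM21 (GRCm38) and promoter windows from RefSeq. The alternatives changed scaling, cell weighting, depth, cell sets, filters, carry-over subtraction, clustering resolution and the immediate-early list.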

Additional observations from a re-analysis of the deposited data

Results flagged for a closer look

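In 7 cases a member's ratio between libraries pointed one way in MG and the other way in another class, with counting intervals on opposite sides of 0 and a gap of at least 1.5-fold. With 1 library per group these differences between classes were not tested. The share of all genes that meet the same rule was not counted, so nothing is read from the number of cases. For CCANT over CCA, the rod ratio exceeded the MG ratio by 1.201 on the log2 scale for *Hspa1a* (0.28 in rods, −0.92 in MG), by 0.73 for *Hspa5* (0.25 and −0.48), by 0.62 for *Hspa8* (0.28 and −0.34) and by 0.69 for *Dnajb1* (0.40 and −0.30). For CCANT over Control, *Hspa5* was 0.62 further up in rods than in MG (0.48 and −0.13), and *Hsp90aa1* was 0.64 further up in microglia (0.42 and −0.23). For CCA over Control, *Hspa5* in cones differed from MG by −0.66 (−0.31 and 0.35). *Hspa8* shares sequence with pseudogenes, so its count is uncertain in every class.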

How the results depend on the processing

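For the 10 members summed in MG, the log2 ratio kept its sign under every alternative run. CCA over Control (0.20) was 0.14 with size factors, 0.19 with cells thinned to 8000 UMIs or with the counts of the joint table, 0.16 without cycling clusters, 0.22 for MG of all passing cells or at most 5% mitochondrial UMIs, 0.20 without the top 1% of cells, 0.29 in the lowest immediate-early quartile and 0.14 in cluster 1. CCANT over Control (−0.064) was −0.098 with size factors, −0.075 as a mean over cells, −0.082 with joint counts, −0.034 for all joint cells, −0.089 without cycling clusters, −0.088 for all passing cells, −0.054 at most 5% mitochondrial, −0.042 in the lowest quartile and −0.25 in cluster 1. CCANT over CCA (−0.27) was −0.24 with size factors, for all joint cells or without cycling clusters, −0.31 for all passing cells, −0.33 in the lowest quartile and −0.39 in cluster 1. Rods with 1% to 3% mitochondrial UMIs gave −0.012 for CCA over Control (0.023 in all rods), 0.12 for CCANT over Control and 0.14 over CCA. At resolution 1, rods gave 0.24 for CCANT over Control and 0.21 over CCA, cones −0.16 for CCA over Control and −0.10 for CCANT over CCA, and bipolar cells −0.041 for CCANT over CCA. Subtracting rod carry-over in cones gave −0.33 for CCANT over Control and −0.22 over CCA, and subtracting MG carry-over in amacrine cells gave −0.066 for CCANT over CCA. A mean over cells gave 0.37 and 0.28 over Control in amacrine cells for CCA and CCANT, and 0.13 for CCA over Control in pericytes, where leaving out the 5% highest Scrublet scores gave 0.14, and −0.16 for CCANT over CCA. Microglia without tdTomato UMIs gave 0.094 for CCA over Control. With 5 immediate-early genes the top quartile exceeded the lowest by 0.32 in Control, 0.10 in CCA and 0.28 in CCANT (0.38, 0.13 and 0.31 with 28). The cause was not tested.

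The 279, 393 and 152 genes past 1.5-fold became 109, 148 and 39 at 2-fold. With a minimum of 50 UMIs alone, which adds genes of low count, they became 2472 of 17533, 2696 of 17206 and 1449 of 17160. Of the 10 members, 3, 1 and 2 were past 1.5-fold in the same comparisons. For single members in MG, 356 of 370 ratios kept their sign and 14 did not, and in other classes 55 of 876 did not. CCA over Control ranged from 0.85 to 1.25 for *Hspa1a*, 0.94 to 1.47 for *Hspb1* and 0.60 to 0.92 for *Dnajb1*, past 1.5-fold in all 12 alternatives, as was *Hspb1* for CCANT over Control in all 13 (1.88 to 2.28). *Hspa1b* (0.54) ran from 0.48 to 0.95 there and passed 1.5-fold in 4 of 12. For CCANT over Control *Hspa1a* ran from −0.86 (cluster 1) to 0.44, *Hspa1b* from −0.14 (MG with Y-linked UMIs) to 0.87 (lowest quartile), and *Dnajb1* from 0.01 (cluster 1) to 0.58. For CCANT over CCA *Hspa1b* (−0.44) was 0.30 in the lowest quartile, and −1.01 in cluster 1, where *Dnajb1* was −0.75. *Hsp90aa1* was −0.60 in the lowest quartile. Scrublet's automatic threshold called 0, 439 and 0 cells in Control, CCA and CCANT and could not be used. Its replacement, the cluster 1 values, the rod subtraction and the mitochondrial range in rods were added after seeing the data. No paired analysis was possible because each group had 1 library. Low counts limit *Hspb1* outside MG and pericytes and all genes in pericytes.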
